A study of Homo sapiens with 12 samples.

Results

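The genes described here are 9 components of the Hedgehog pathway: the surface proteins CDON, BOC and GAS1, the receptor PTCH1, the ligand trap HHIP, the transducer SMO and the transcription factors GLI1, GLI2 and GLI3. They were taken by name from the 26485 genes of the count table, where all 9 were found. RNA was sequenced from RD, an established human cell line from a fusion-negative rhabdomyosarcoma, which is a soft-tissue tumour with features of developing skeletal muscle. All cells carried a hairpin, switched on by doxycycline (Dox), that targets NT5E, the gene of CD73, which turns extracellular AMP into adenosine at the cell surface. The 2 constructs are titled ish and ish2, and each was grown for 96 h in medium that held Dox at 10 ng/mL or none. The 4 groups are therefore ish with Dox, ish without Dox, ish2 with Dox and ish2 without Dox, with 3 libraries each. No group had Dox and a hairpin without a target, so effects of the drug, of hairpin expression and of NT5E loss cannot be told apart. The labels do not say whether replicates are separate cultures, nor whether each construct is 1 clone or a pool, so p-values measure the spread between these samples, which may be technical.

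In the Hedgehog pathway a secreted ligand binds PTCH1 together with the co-receptors CDON, BOC and GAS1. This lifts the block that PTCH1 places on SMO, a membrane protein that then acts in the primary cilium and lets GLI2 and GLI3 act on target genes instead of being processed into repressors. GLI1, PTCH1 and HHIP are themselves widely used target genes of the pathway, GLI1 reinforcing it, and PTCH1 and HHIP damping it by binding the ligand. The pathway patterns the embryonic somite, where mouse skeletal muscle arises, and mice with 1 lost copy of Ptch1 can develop rhabdomyosarcoma. CDON and BOC also promote differentiation of mouse myoblasts in culture.

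GLI proteins bind DNA at a well known consensus, GACCACCCA. It was searched on both strands of RefSeq promoter windows (GRCh38.p14), which run from 250 bases before to 50 bases after a start site. Windows were at hand for 7 of the 9 genes, 15 in all, so GLI1 and GLI3 were not searched. Of these windows 1, of PTCH1, held the consensus, against 83 of all 35116 windows (0.236%). The 7-base core CCACCCA, which lies within the consensus, was in 2 of the 15 windows (that of PTCH1 and 1 of GLI2) and in 9.19% of all windows. The PTCH1 sequence is shown because PTCH1 is both a component and a target of the pathway. It covers the 250 bases before the start site, chr9:95509267-95509516 on the minus strand, with the match in capitals, read on the opposite strand of the consensus and beginning 172 bases before the start site. The stretch lies inside the annotated PTCH1 gene and overlaps no exon in GENCODE 29. A match of letters is a description and does not show that a GLI protein was bound.

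PTCH1: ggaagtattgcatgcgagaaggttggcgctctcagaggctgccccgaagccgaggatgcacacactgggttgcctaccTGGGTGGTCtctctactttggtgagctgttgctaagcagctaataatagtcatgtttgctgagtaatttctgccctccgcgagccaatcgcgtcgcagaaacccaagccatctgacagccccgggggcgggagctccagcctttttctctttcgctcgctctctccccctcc

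Library size and the targeted gene came first. Gene counts per library ran from 26566603 to 32692207. NT5E had 59, 37 and 50 reads in ish with Dox, against 453, 563 and 558 without it (edgeR log2 fold change -3.41 with SE 0.11, adjusted p = 3.31e-25). In ish2 it had 424, 409 and 441 reads with Dox, against 668, 626 and 612 without it (log2 fold change -0.67, SE 0.07, adjusted p = 4.62e-11). Of 10 muscle and rhabdomyosarcoma markers, 9 averaged over 1 CPM (reads scaled to a library of 1000000) in every group, and MYF5 had 1 read in 1 library and none in the others. The summed level of 6 epithelial markers, mostly KRT18, was 6.79 to 8.71 CPM in ish with Dox, against 31.9 to 33.7 CPM without it, and 60.2 to 61.2 CPM in ish2 with Dox, against 37.5 to 42.5 CPM without it. The 6 fibroblast markers, mostly COL1A1, summed to 112 to 117 CPM in ish with Dox, against 170 to 178 CPM without it, and to 182 to 193 CPM in ish2 with Dox, against 206 to 225 CPM without it. Other fibroblast markers went the other way in ish: DCN had 14, 14 and 19 reads with Dox, against 0, 0 and 1 without it, and LUM had 36, 40 and 49 reads, against 2, 6 and 2. The 4 endothelial markers summed to 4.82 to 5.18 CPM in ish with Dox, against 1.05 to 1.24 CPM without it. In ish2 they summed to 0.631 to 0.754 CPM with Dox, against 0.939 to 1.3 CPM without it. CLDN5 made up most of each library's sum in ish with Dox and in ish2 without Dox. It averaged 0.625 CPM in ish without Dox and 0.306 CPM in ish2 with Dox, where it was not most of every library's sum. The 3 chondrocyte markers, nearly all COL2A1, summed to 23.2 to 24.7 CPM in ish with Dox, against 66.0 to 69.4 CPM without it, and to 66.0 to 68.3 CPM in ish2 with Dox, against 67.5 to 68.1 CPM without it. Their part in the results below was not tested. The library ish2 without Dox replicate 1 stood apart for a few genes. DCN had 12 reads there and 0 in the group's other libraries, and CDH1 had 14 reads against 0 and 0. PDGFRA had 19 reads against 2 and 2, and COL1A2 had 178 against 82 and 82.

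Without Dox, the pathway's surface proteins were the most abundant of the 9 messages and the GLI factors and PTCH1 were lower. Levels between genes are compared here as CPM per kilobase of the longest coding transcript. In ish without Dox the order was GAS1 (162 ± 4.24 CPM per kilobase, mean ± SD, n = 3), CDON (45.2 ± 0.614), BOC (25.9 ± 0.753), SMO (20.1 ± 0.42), GLI3 (15.7 ± 0.24), PTCH1 (7.04 ± 0.0316), GLI1 (4.05 ± 0.131), GLI2 (3.37 ± 0.166) and HHIP (0.00753 ± 0.00763). The order was the same in ish2 without Dox, and in both lines the lowest library of each gene lay above the highest library of the next. The order depended on the length used. Per kilobase of all annotated exons BOC averaged 11.6 ± 0.339 in ish and 11.5 ± 0.245 in ish2, below SMO and within or near the spread of GLI3 (11.8 ± 0.18 and 11.9 ± 0.229). On that scale PTCH1 and GLI1 lay within their spread, at 3.49 ± 0.0157 and 3.48 ± 0.112 in ish and at 3.59 ± 0.031 and 3.51 ± 0.493 in ish2. With Dox, CDON (11 ± 0.104 CPM per kilobase) and BOC (10.2 ± 0.359) ranked below SMO (25.5 ± 0.85) and GLI3 (12.8 ± 0.243) in ish. GLI1 ranked below GLI2 in ish with Dox (1.64 ± 0.0679 against 3.49 ± 0.0277). Per kilobase of all annotated exons, PTCH1 (2.51 ± 0.0113) also ranked below GLI2 (3.23 ± 0.0256) in ish with Dox. In ish2 with Dox the order of the lines without Dox held per longest coding transcript.

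**Figure D1:**
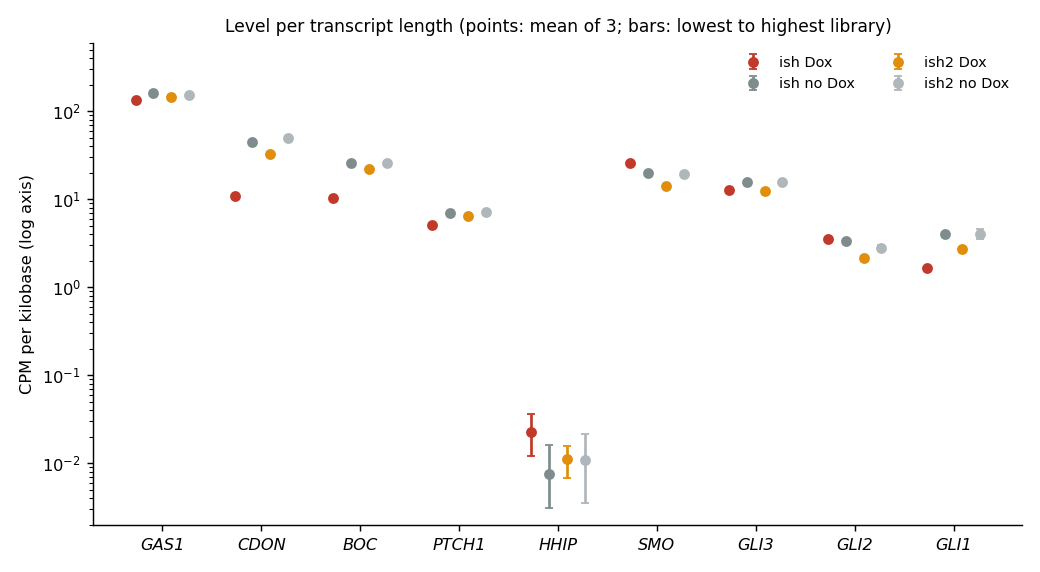
Level of each gene as CPM per kilobase of its longest coding transcript (log axis) in the 4 groups, where points are means of 3 libraries and bars run from the lowest to the highest library. GAS1 lies highest in all 4 groups (133 to 162) and HHIP lowest, and CDON in ish with Dox (11) lies apart from its other groups.

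HHIP, a protein that binds and sequesters the ligand, was at the limit of detection. It had 6, 11 and 4 reads in ish with Dox, against 5, 1 and 1 without it, and 2, 3 and 5 reads in ish2 with Dox, against 6, 2 and 1 without it. The groups overlap in both constructs. HHIP did not pass the low-count filter, so 8 of the 9 genes were tested. Without that filter it was called higher with Dox in ish (log2 fold change 1.54, adjusted p = 0.0279), a value that rests on these few reads, and not in ish2 (0.06, adjusted p = 1).

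With Dox, 6 of the 8 tested genes fell in ish, SMO rose and GLI2 was not called, and all 8 fell in ish2. Across all tested genes, 78.6% were called in ish (39.1% higher and 39.5% lower) and 65.0% in ish2 (33.9% higher and 31.1% lower). The median log2 fold change of the 8 genes was -0.38 in ish and -0.38 in ish2, beside -0.01 and 0.01 over all tested genes. A count of calls is therefore common in these data, and the sizes differ more between genes: CDON, BOC and GLI1 passed 2-fold in ish, and none did in ish2, where 17.9% of all tested genes changed more than 2-fold in ish and 6.42% in ish2. In a culture, fewer cells with a message and less message per cell cannot be told apart.

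**Figure D2:**
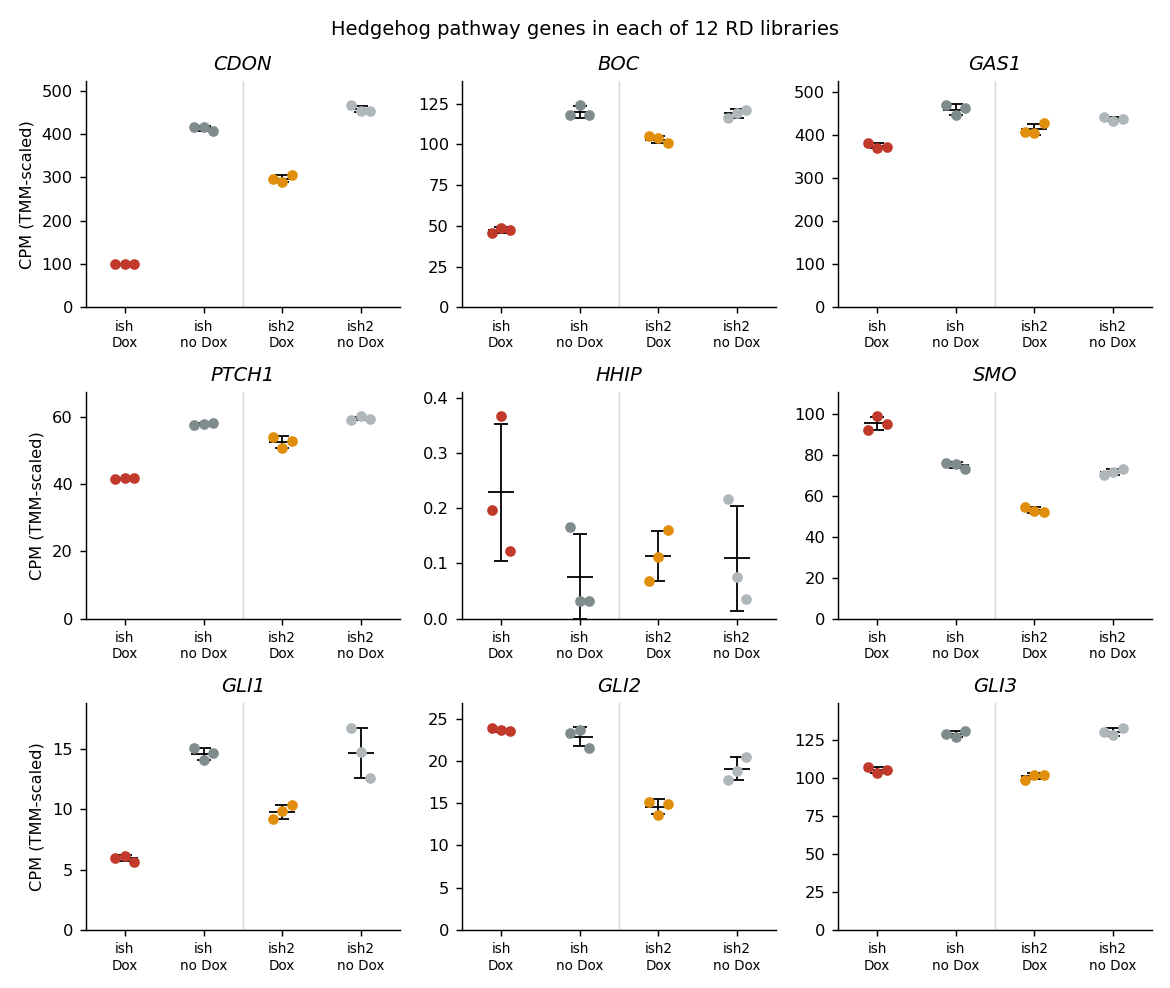
CPM of each of the 9 genes in every library (coloured points), with the mean and SD of 3 libraries (black), for ish and ish2, with Dox and without. CDON, BOC and GLI1 in ish with Dox lie far below their libraries without Dox, SMO in ish with Dox lies above, and HHIP lies near 0.

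Among the 3 co-receptors the changes were unequal, and that of CDON was the largest of the 8 tested genes in ish. In ish2 CDON (log2 fold change -0.62, SE 0.03) and GLI1 (-0.59, SE 0.08) could not be ranked. With ish2 without Dox replicate 3 left out, GLI1 changed more there (-0.70, against -0.64 for CDON). CDON, an immunoglobulin-family co-receptor that binds the ligand (chromosome 11, 125955796 to 126063335, minus strand), was at 101, 100 and 99.2 CPM in ish with Dox, against 417, 416 and 407 CPM without it. In ish2 it was at 297, 289 and 305 CPM with Dox, against 466, 453 and 452 CPM without it. In both constructs every Dox library lay below every library without Dox, and the distance was wider in ish. CDON fell 4.12-fold in ish (log2 fold change -2.04, SE 0.03, adjusted p = 4.16e-37), and 4.54% of tested genes changed more. It fell 1.54-fold in ish2 (-0.62, SE 0.03, adjusted p = 1.23e-21), where 16.5% changed more. The ish2 effect minus the ish effect was 1.42 on the log2 scale (SE 0.04, adjusted p = 4.38e-28).

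BOC, the close relative of CDON (chromosome 3, 113211003 to 113287459, plus strand), was at 45.6, 48.9 and 47.8 CPM in ish with Dox, against 118, 124 and 118 CPM without it. Its level in ish2 was 105, 104 and 101 CPM with Dox, against 116, 119 and 121 CPM without it. The groups do not overlap in either construct, but the gap in ish2 was small. BOC fell 2.53-fold in ish (log2 fold change -1.34, SE 0.03, adjusted p = 3.7e-29) and 1.15-fold in ish2 (-0.20, SE 0.03, adjusted p = 4.5e-07). These effects differed by 1.14 (SE 0.05, adjusted p = 1.66e-22). BOC shares exon positions with CFAP44 on the opposite strand, which was at 24.2, 22.6 and 24.2 CPM in ish with Dox, against 24.7, 23.5 and 22.0 CPM without it. In ish2 CFAP44 fell, to 12.7, 12.7 and 15.1 CPM with Dox, against 24.1, 19.7 and 21.5 CPM without it (log2 fold change -0.68, adjusted p = 3e-09). Without strand, reads at positions that the pair shares cannot be told apart. Their part in the small ish2 value of BOC was not tested.

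GAS1, a GPI-anchored co-receptor encoded by a single exon (chromosome 9, 86944363 to 86947189, minus strand), changed least of the 3. It was at 382, 371 and 372 CPM in ish with Dox, against 469, 446 and 463 CPM without it. The ish2 libraries held 407, 404 and 427 CPM with Dox, against 441, 432 and 437 CPM without it. The groups stayed apart in both constructs. The fall was 1.22-fold in ish (log2 fold change -0.29, SE 0.03, adjusted p = 1.55e-12) and 1.06-fold in ish2 (-0.08, SE 0.03, adjusted p = 0.00689), and 81.3% of tested genes changed more than that in ish2. The difference between the effects was 0.21 (SE 0.04, adjusted p = 4.44e-06).

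PTCH1, the receptor that holds SMO inactive (chromosome 9, 95442980 to 95517057, minus strand), was at 41.5, 41.7 and 41.9 CPM in ish with Dox, against 57.7, 57.9 and 58.2 CPM without it. In ish2 it was at 54.1, 50.6 and 52.9 CPM with Dox, against 59.1, 60.1 and 59.3 CPM without it. Every Dox library lay below every library without Dox of its construct. PTCH1 fell 1.39-fold in ish (log2 fold change -0.47, SE 0.04, adjusted p = 1.11e-14) and 1.13-fold in ish2 (-0.18, SE 0.04, adjusted p = 3.26e-05). The effects differed by 0.30 (SE 0.05, adjusted p = 2.19e-06). Of all tested genes, 43.9% changed more than PTCH1 in ish and 61.9% in ish2.

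SMO, the transducer that PTCH1 restrains (chromosome 7, 129188872 to 129213545, plus strand), went in opposite directions in the 2 constructs. It was at 92.3, 98.7 and 94.9 CPM in ish with Dox, against 76.0, 75.7 and 73.2 CPM without it. Its level in ish2 was 54.5, 52.6 and 52.0 CPM with Dox, against 70.0, 71.7 and 72.9 CPM without it. The groups do not overlap in either construct, with Dox above in ish and below in ish2. SMO rose 1.27-fold in ish (log2 fold change 0.35, SE 0.03, adjusted p = 3.37e-12) and fell 1.35-fold in ish2 (-0.43, SE 0.04, adjusted p = 3.26e-13). The ish2 effect minus the ish effect was -0.78 (SE 0.05, adjusted p = 5.51e-17).

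Among the GLI factors, GLI1 fell furthest. GLI1, an activator with no repressor form that is induced by the pathway itself (chromosome 12, 57460135 to 57472262, plus strand), was at 5.97, 6.15 and 5.66 CPM in ish with Dox, against 15.1, 14.1 and 14.7 CPM without it. The ish2 libraries held 9.18, 9.83 and 10.4 CPM with Dox, against 16.8, 14.8 and 12.6 CPM without it. The groups do not overlap, although the 3 libraries of ish2 without Dox spread more widely than those of the other groups. GLI1 fell 2.47-fold in ish (log2 fold change -1.30, SE 0.08, adjusted p = 7.45e-16) and 1.5-fold in ish2 (-0.59, SE 0.08, adjusted p = 6.53e-08), or by 0.49 in ish2 without the highest library, ish2 without Dox replicate 1 (adjusted p = 1.84e-06). The effects differed by 0.72 (SE 0.12, adjusted p = 1.79e-06). GLI1 shares exon positions with ARHGAP9 on the opposite strand, which was at 34.2, 28.0 and 31.8 CPM in ish with Dox, against 12.4, 10.7 and 11.1 CPM without it, and at 4.90, 6.27 and 5.78 CPM in ish2 with Dox, against 12.8, 14.7 and 9.44 CPM without it. The sources used here do not say whether counting used strand, and without it reads at positions that a pair shares cannot be told apart. Reads marked ambiguous, 2.08% to 2.65% of each library, were assigned to no gene. Whether reads of shared positions are among them is not stated. PTCH1, SMO, HHIP and CDON also share exon positions with a gene on the opposite strand in GENCODE 29 (GRCh38), and GLI2, GLI3 and GAS1 share none.

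GLI2, the main activator downstream of SMO (chromosome 2, 120735623 to 120992653, plus strand), was at 24.0, 23.7 and 23.6 CPM in ish with Dox, against 23.4, 23.7 and 21.6 CPM without it. These groups overlap, and the log2 fold change was 0.05 (95% interval -0.06 to 0.16, adjusted p = 0.38). In ish2 it was at 15.2, 13.6 and 14.9 CPM with Dox, against 17.8, 18.8 and 20.5 CPM without it, with no overlap. There GLI2 fell 1.30-fold (log2 fold change -0.38, SE 0.06, adjusted p = 1.3e-06), and the ish2 effect minus the ish effect was -0.43 (SE 0.08, adjusted p = 1.19e-05).

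GLI3, which is processed into the main repressor of the pathway in the absence of ligand (chromosome 7, 41960950 to 42237870, minus strand), was at 107, 103 and 105 CPM in ish with Dox, against 129, 127 and 131 CPM without it. Its level in ish2 was 98.8, 102 and 102 CPM with Dox, against 130, 128 and 133 CPM without it. The groups do not overlap, with Dox lower in both. GLI3 fell 1.23-fold in ish (log2 fold change -0.30, SE 0.03, adjusted p = 8.21e-12) and 1.29-fold in ish2 (-0.37, SE 0.03, adjusted p = 1.04e-13). The difference between these effects was -0.07 (95% interval -0.16 to 0.01, adjusted p = 0.099, range over the alternatives 0.0438 to 0.242). It was called under RLE scaling (adjusted p = 0.0438) and without ish2 without Dox replicate 2 (0.0462).

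**Figure D3:**
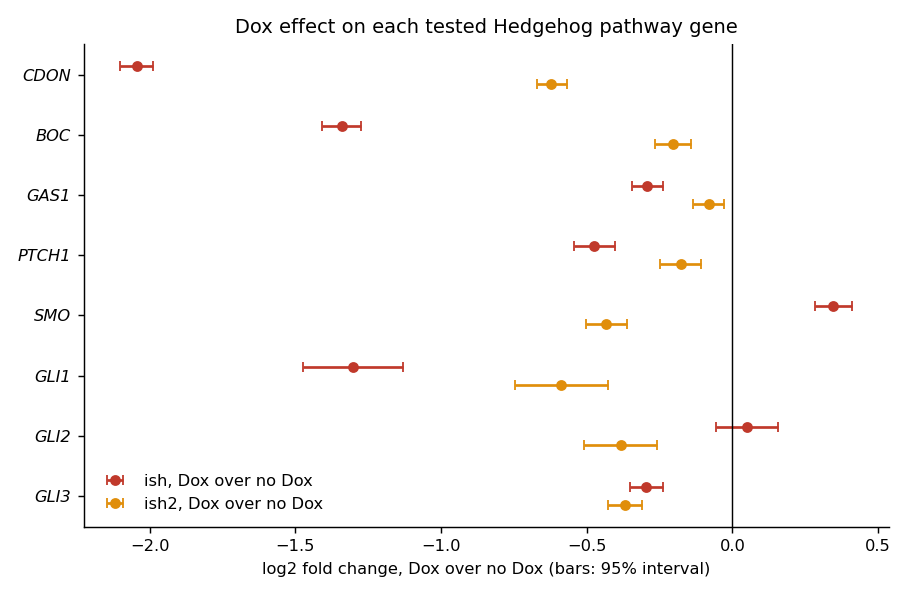
Log2 fold change of Dox over no Dox for the 8 tested genes in ish and ish2, with 95% intervals from the edgeR fit. CDON (-2.04), BOC (-1.34) and GLI1 (-1.30) lie furthest left in ish, SMO lies on opposite sides of 0 in the 2 constructs, and the intervals of GLI3 overlap.

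Set against each other, the Dox effects of ish2 and ish differed for 7 of the 8 genes, where 72.6% of all tested genes were called for this difference (37.4% higher in ish2 and 35.2% lower). For CDON, BOC, GAS1, PTCH1 and GLI1 the fall was smaller in ish2 than in ish. For SMO and GLI2 the ish2 effect was the lower one. The constructs also differ in how far NT5E fell, and whether that relates to these differences was not tested. Of 9 tested muscle and rhabdomyosarcoma markers, 6 rose and 2 fell in ish, and 2 rose and 6 fell in ish2. For the Dox effect, 78.6% of all tested genes were called in ish and 65.0% in ish2. MYOG, the factor of terminal muscle differentiation, rose in ish (log2 fold change 2.62) and fell in ish2 (-2.24), as did MYH3, an embryonic myosin (3.28 and -1.21). Other markers did not share that pattern: MYOD1 (1.6 and 0.17) and DES (0.82 and 0.65) rose in both, FGFR4 fell in both (-1.02 and -0.64), and PAX7 had a value of 0.00 in ish (adjusted p = 0.929) and fell in ish2 (-0.91). MKI67, a marker of cycling cells, fell in both (-0.93 and -1.17). Their part in the Hedgehog values was not tested.

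Without Dox, the 2 lines were close for most of the 9 genes. Comparing ish2 with ish, 3 of 8 were called, 1 higher and 2 lower, where 26.1% of all tested genes were called (13.7% higher and 12.4% lower). GLI2 was lower in ish2, at 17.8, 18.8 and 20.5 CPM, against 23.4, 23.7 and 21.6 CPM in ish (log2 fold change -0.27, SE 0.06, adjusted p = 0.000446). CDON was higher in ish2, at 466, 453 and 452 CPM, against 417, 416 and 407 CPM in ish (0.15, SE 0.03, adjusted p = 3.31e-05). GAS1 was lower in ish2, at 441, 432 and 437 CPM, against 469, 446 and 463 CPM in ish (-0.07, SE 0.03, adjusted p = 0.0362).

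The GAS1 call without Dox was fragile, with an adjusted p of 0.0132 to 0.151 over the alternatives. It was lost under RLE scaling (adjusted p = 0.0831), in DESeq2 (0.11) and in a fit of the 6 libraries without Dox (0.0727). It was also lost without ish without Dox replicate 1 (adjusted p = 0.151) or replicate 3 (0.12), without ish2 with Dox replicate 2 (0.0585) and without ish2 without Dox replicate 2 (0.11). GLI1 (0.01, 95% interval -0.14 to 0.16), GLI3 (0.02, -0.04 to 0.07), PTCH1 (0.04, -0.03 to 0.11), BOC (-0.02, -0.08 to 0.04) and SMO (-0.07, -0.14 to 0.00) were not called between the lines.

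The rest of the pathway was read from lists by role. Of the ligands, SHH had at most 2 reads in any library, IHH at most 8 and DHH at most 12, too few to test. Of 8 ligand and release genes 4 were tested. HHAT, which attaches palmitate to the ligand, rose in ish (log2 fold change 0.97, SE 0.07) and fell in ish2 (-0.92, SE 0.10), with an adjusted p of 9.02e-17 for the difference. DISP1, which releases the lipid-modified ligand from cells, rose in both (0.44 and 0.63). SCUBE3, a secreted relative of the release factor SCUBE2, fell in ish (-0.54), and its value in ish2 was -0.16 (adjusted p = 0.349). SCUBE2 itself had values of 0.10 and 0.14, not called in either.

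Of 13 further reception genes 10 were tested, of which 6 rose and 2 fell in ish, and 2 rose and 6 fell in ish2. Across all tested genes, 39.1% were called higher and 39.5% lower in ish, and 33.9% higher and 31.1% lower in ish2. The median log2 fold change was 0.38 in ish and -0.21 in ish2, beside -0.01 and 0.01 over all tested genes. EVC and EVC2 encode the ciliary complex that works with SMO, and IQCE and EFCAB7 anchor that complex. IQCE rose in ish (0.89) and fell in ish2 (-0.79), as did EVC (0.52 and -0.27) and EFCAB7 (0.59 and -0.26), and the difference was called for each, as it was for SMO. EVC2 fell in ish (-0.42) and had a value of -0.07 in ish2 (adjusted p = 0.431).

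MGRN1, a ubiquitin ligase that lowers SMO at the cell surface, rose in ish (0.48) and fell in ish2 (-0.17). GPR161, a ciliary receptor that restrains the pathway by raising cAMP, fell in both (-0.50 and -0.37). The glypican genes had few reads: GPC3 had a value of 0.25 in ish (adjusted p = 0.319) and fell in ish2 (-0.65), and GPC4 had a value of 0.27 in ish (adjusted p = 0.292) and rose in ish2 (0.80).

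Of 27 cytoplasmic regulators 26 were tested, of which 15 rose and 8 fell in ish (median 0.16), and 10 rose and 6 fell in ish2 (median -0.01). Shares over all tested genes were 39.1% higher and 39.5% lower in ish, and 33.9% higher and 31.1% lower in ish2. ARRB1 and ARRB2 encode beta-arrestins, which bind active SMO. ARRB1 fell in both constructs (-1.59 in ish and -0.52 in ish2), and ARRB2 fell in ish (-0.74), with a value of -0.07 in ish2 (adjusted p = 0.105). STK36, the human relative of the fly kinase Fused, rose in ish (0.77) and had a value of -0.04 in ish2 (adjusted p = 0.277). PRKACA, a catalytic subunit of protein kinase A, which marks GLI2 and GLI3 for processing, rose in ish (0.61) and fell in ish2 (-0.34). PRKACB, another catalytic subunit of that kinase, rose in both (0.54 and 0.74). DYRK2, a kinase reported to act on GLI2, rose in both (0.59 and 0.56), and CSNK1G2, a casein kinase, fell in both (-0.23 and -0.81).

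All 36 genes of the primary cilium list, the organelle in which SMO acts, were tested. In ish 12 rose and 17 fell (median -0.01), and in ish2 11 rose and 11 fell (median -0.02), so the list had no common direction. The share of all tested genes called either way was 78.6% in ish and 65.0% in ish2. WDR35, a component of the intraflagellar transport machinery, fell in ish (-1.24) and had a value of -0.03 in ish2 (adjusted p = 0.432). TULP3, which carries GPR161 into cilia, rose in ish (0.48) and fell in ish2 (-0.19). IFT20 rose in both (0.80 and 0.21), and ANKMY2 rose in ish (0.63), with a value of 0.04 in ish2 (adjusted p = 0.381). IFT172 rose in ish (0.24) and fell in ish2 (-0.75). RPGRIP1L, of the ciliary transition zone, fell in both (-0.10 and -0.68). IFT80 had a value of 0.01 in ish (adjusted p = 0.759) and fell in ish2 (-0.48), and the motor gene KIF3A rose in both (0.40 and 0.58).

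Genes reported as Hedgehog targets in other tissues were tested for 24 of 28. In ish 15 fell and 6 rose (median -0.63, beside -0.01 over all tested genes), and in ish2 6 fell and 7 rose (median 0.12, beside 0.01). Shares over all tested genes were 39.5% lower and 39.1% higher in ish, and 31.1% lower and 33.9% higher in ish2. FOXF1, a target in mouse mesenchyme, fell in ish (-2.38) and had a value of -0.13 in ish2 (adjusted p = 0.252). IGF2, a growth factor that is high in rhabdomyosarcoma, fell in both (-2.13 and -0.51), as did CCND1, which encodes cyclin D1 (-2.09 and -0.72). CCNE1, which encodes cyclin E1, fell in ish (-0.77) and had a value of 0.05 in ish2 (adjusted p = 0.296). FOXD1 fell in ish (-0.92) and rose in ish2 (0.89). SPP1, which encodes osteopontin, fell in ish (-1.65) and rose in ish2 (2.57). Many of these genes answer to other pathways as well.

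**Figure D4:**
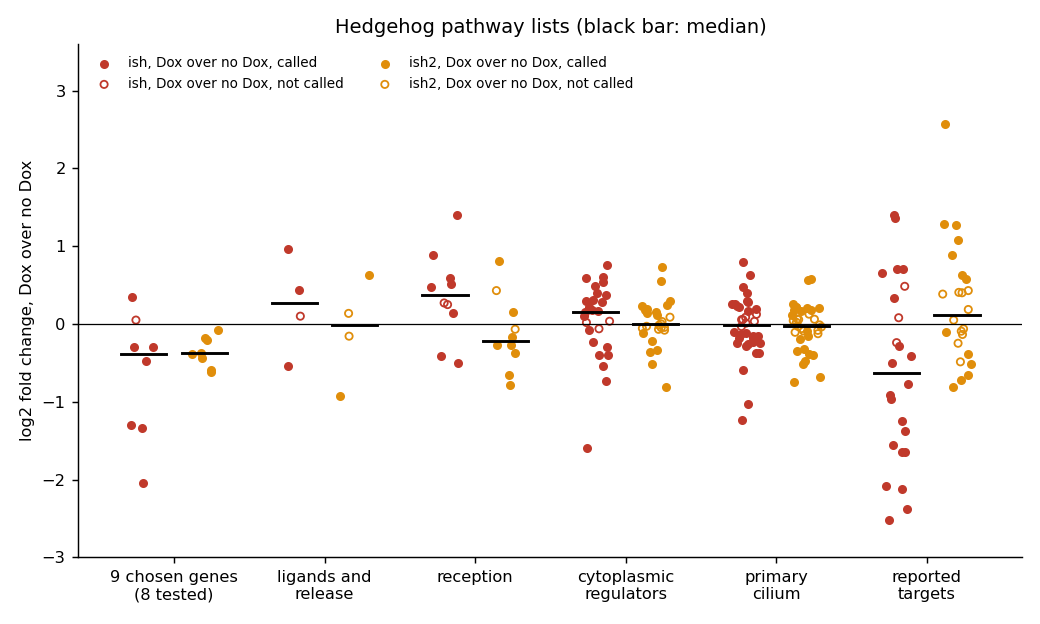
Log2 fold change of Dox over no Dox for the tested genes of 6 Hedgehog pathway lists in ish and ish2, with called genes filled, uncalled genes open and medians as black bars. The medians of the reception list lie on opposite sides of 0 (0.38 in ish and -0.21 in ish2), and that of the reported targets lies at -0.63 in ish and 0.12 in ish2.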

How the data were processed

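RNA from RD cells was sequenced as 12 stranded mRNA libraries, and the authors deposited 1 table of raw counts per gene symbol. Per the submitters' processing notes, the tools were STAR 2.7.3a, Subread 1.6.3, featureCounts and Trim Galore 0.6.4, and the build was GRCh38. The sources used here do not give the roles of these tools, the strand setting or the annotation behind the counts. The last 5 rows hold reads not assigned to a gene, 21.0% to 24.4% of each library, and were left out. Sample titles gave the groups, with the same treatments and replicate numbers in the headers of the table. Headers call the constructs Sh1 and Sh2, so Sh1 was matched to ish because ish2 is the only other title. The 9 genes and the gene lists were chosen with earlier results of these data known.

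Low counts were filtered by group (filterByExpr), which left 15206 of 26485 genes, and libraries were scaled by TMM. One edgeR quasi-likelihood fit of 4 group means gave 4 contrasts (edgeR 4.0.16, limma 3.58.1 and R 4.3.3), with Benjamini-Hochberg adjustment over all genes tested and calls at an adjusted p under 0.05. The common dispersion corresponds to a coefficient of variation of 2.44%, so changes of a few percent can be called. SEs were approximated as the size of the log2 fold change over the root of the test's F, and 95% intervals follow from them. CPM are counts scaled to a library of 1000000 reads with TMM factors. For levels between genes, CPM were divided by the longest coding transcript in GENCODE 29. The alternatives were other scalings and filters, DESeq2 1.42.0, each comparison from its own 6 libraries, a replicate block, and each library left out. The fit was tested on simulated counts with planted changes. Same-numbered libraries did not deviate together (correlation of residuals -0.128 to 0.064). The text names the 9 genes, NT5E, every tested ligand and reception gene, 4 genes with the smallest p per other list and construct, the genes most like GLI1 (4) and PTCH1 (5), and a few muscle and cell-cycle genes. A few genes that these rules would name are not reported here. The 95% intervals reflect the spread between these libraries, which may be technical, and reads carry no molecular identifiers.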

Additional observations from a re-analysis of the deposited data

Results flagged for a closer look

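For 7 of the 8 tested genes the Dox effect differed between the constructs in the edgeR fit itself. The ish2 effect minus the ish effect, on the log2 scale, was 1.42 for CDON, 1.14 for BOC, 0.72 for GLI1, 0.30 for PTCH1, 0.21 for GAS1, -0.43 for GLI2 and -0.78 for SMO. The adjusted p-values ran from 4.38e-28 for CDON to 1.19e-05 for GLI2. The direction was the same in all 18 alternatives for each of these 7 genes. Of all tested genes, 72.6% showed such a difference.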

How the results depend on the processing

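Over the scalings, filters, DESeq2, the fits of 6 libraries, the replicate block and each library left out, 588 of 600 gene values kept their direction and their side of the threshold. For a comparison between a pair of groups, some left-out libraries lay outside it, and leaving them out could move its fold change only little. All 150 counts of called genes stayed within 1.5 times. Of the 12 others, 7 were the GAS1 call and 2 the GLI3 difference given above, and 3 were reversals of values near 0 that were called in no fit. Between the lines without Dox, GLI1 turned to -0.014 without ish without Dox replicate 2 and to -0.095 without ish2 without Dox replicate 1, within a range of -0.095 to 0.114 over the libraries left out. BOC turned to 0.005 without ish without Dox replicate 2, within a range of -0.033 to 0.005. The cause was not tested. The replicate numbers share only a number: 4 of 12 libraries went best with their own. With the replicate block the called genes among the 8 numbered 7 in ish, 8 in ish2, 7 for the difference and 3 without Dox, as in the fit without it. Per kilobase of all annotated exons, 26 of 36 levels moved by more than 1 SD, BOC changed its place in the order, and PTCH1 and GLI2 changed places in ish with Dox. Depth limits HHIP, SHH, IHH and DHH, which had too few reads for the low-count filter; without it HHIP was called in ish, as given above.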

Other observations

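The balance between pairs of pathway genes was also read within each library, as the log2 ratio of reads, which depends on transcript length but not on depth. SMO stood to PTCH1 at 1.15 to 1.24 in ish with Dox, against 0.33 to 0.40 without it, and at -0.03 to 0.06 in ish2 with Dox, against 0.24 to 0.30 without it. The groups do not overlap in either construct, and the ratio was higher with Dox in ish and lower in ish2. CDON stood to BOC at 1.04 to 1.15 in ish with Dox, against 1.74 to 1.82 without it, and at 1.48 to 1.6 in ish2 with Dox, against 1.90 to 2.00 without it. GLI1 stood to PTCH1 at -2.89 to -2.76 in ish with Dox, against -2.03 to -1.94 without it. In ish2 the same ratio was -2.56 to -2.35 with Dox, against -2.23 to -1.82 without it, and the groups do not overlap in either construct. GLI1 stood to GLI2 at -2.06 to -1.94 in ish with Dox, against -0.75 to -0.56 without it, and at -0.73 to -0.47 in ish2 with Dox, against -0.70 to -0.09 without it, where the groups overlap. GLI1 stood to GLI3 at -4.21 to -4.07 in ish with Dox, against -3.16 to -3.10 without it, and at -3.43 to -3.30 in ish2 with Dox, against -3.40 to -2.96 without it, also with overlap in ish2. CDON stood to GAS1 at -1.92 to -1.89 in ish with Dox, against -0.19 to -0.10 without it, and at -0.48 to -0.46 in ish2 with Dox, against 0.05 to 0.08 without it.

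The tested genes whose log2 CPM (plus 1) went most like that of GLI1 over the 12 libraries were SLU7 (Pearson r = 0.991), RBPMS (0.991), IQGAP3 (0.989) and IKBKB (0.989), the 4 highest of 12454 genes with a mean log2 CPM of at least 1. For PTCH1 they were SDCCAG3 (0.995), PHLDB1 (0.994), NUP210 (0.994), CRISPLD2 (0.993) and ZMIZ1 (0.993). The libraries fall into 4 groups, so these values describe the order of the groups and are no test.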
